A study of Rattus norvegicus with 12 samples.

Results

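Genes for the proteasome, its regulators and its assembly chaperones were followed in bulk RNA sequencing of rat PC12 cells, a line named for a pheochromocytoma of the adrenal medulla. The genes were taken by name, as every symbol that begins with Psm, a letter from a to g and a digit, without pseudogene names and without the interferon-inducible Psmb8, Psmb9 and Psmb10. The rule found 43 of the 30454 genes in the count table, and 42 of them passed the filter on low counts that left 13692 genes for testing. Of the 43, 8 encode the alpha ring of the core particle, 7 its beta ring, 6 the ATPases and 11 the other subunits of the 19S regulatory particle. A further 3 encode activator caps, 1 an inhibitor and 5 assembly chaperones, and the 2 others were matched by name only: Psmc3ip, a cofactor of meiotic recombination, and Psme3ip1, which binds an activator cap. Psma8, the alpha subunit known from testis, was the member left untested, at 0 to 0.541 CPM over the libraries. CPM are read counts scaled by library size, with normalization factors from the TMM method. Psmb11, Psme3, Psmd9 and Psmd10 were not analysed here.

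All 12 libraries came from cells put through oxygen and glucose deprivation followed by reoxygenation, an in vitro model of ischaemia and reperfusion. The 4 OGDR libraries had no further treatment, the 4 MSCs libraries were from deprived cells given mesenchymal stem cells, and the 4 rTMS-MSCs libraries were from deprived cells given the stem cells together with repetitive transcranial magnetic stimulation at 10 Hz. Cells were collected 48 h after treatment, no undeprived group was analysed here, and stimulation without stem cells was not analysed here either. The sources used here do not give the species of the stem cells, how they were applied, or whether the 4 libraries of a group came from separate cultures, so p-values reflect the spread of these libraries alone, which may be technical.

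The proteasome degrades proteins tagged with ubiquitin. Its barrel-shaped core particle has outer alpha rings that gate the entrance and inner beta rings, in which Psmb5, Psmb6 and Psmb7 encode the catalytic subunits with chymotrypsin-like, caspase-like and trypsin-like activity. The 19S particle binds ubiquitin chains, removes them and threads the substrate into the core, and in many cell types the subunit genes are controlled together by the transcription factor Nfe2l1.

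The libraries held 18246250 to 20471838 counts in genes, and the members took 122423 to 161134 of these, or 0.671% to 0.822%. Library 3 of rTMS-MSCs and library 3 of MSCs lay at opposite ends of the second principal component, at 32.4 and -30.9, and the first of them had the lowest quality weight of all, 0.348, in limma. Counts of called members are therefore given with and without both. By the median of the members rTMS-MSCs 3 was also the highest library and MSCs 3 the lowest. Leaving out both was thus bound to draw these groups closer in the members' median. Of 10 chromaffin markers, 5 stayed under 1 CPM in every library, and Ddc, which encodes an enzyme of catecholamine synthesis, had no count, so the tissue of origin named by the label was not seen in its defining genes. The summed chromaffin list was 272 to 339 CPM in OGDR, 189 to 233 in MSCs and 199.6 to 214 in rTMS-MSCs, nearly all of it Scg2. A list of 7 glial and Schwann cell markers, among them Sox10 and Ngfr, summed to 905 to 985, 1064 to 1137 and 1042 to 1150 CPM. For 10 stromal and stem cell markers the sums were 342 to 358, 368 to 391 and 281 to 359 CPM, with Lum at no count, and 5 macrophage markers summed to at most 4.63 CPM. The chromaffin and glial sums of OGDR lay apart from both other groups, and the stromal sums of MSCs lay above the others. The stromal sums of OGDR and rTMS-MSCs overlapped, as did the macrophage sums of all groups. The part of these lists in the results below was not tested. In bulk samples fewer cells of a type and less RNA per cell cannot be told apart.

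Upstream sequences are shown for 6 members on which the results turn. Psmb2 differed most between the groups, Psmb3 and Psmb7 are core subunits that rose with stimulation, Psma6 and Psmd8 were higher in rTMS-MSCs than in OGDR, and Psmd1 was the subunit that fell in rTMS-MSCs against OGDR. Each is the 250 bases before the transcription start in RefSeq's table for build GRCr8, read 5′ to 3′ on the gene's strand, while the counts were made on another build. Capitals mark 4 motifs searched on both strands: TGACGTCA, the cAMP response element (CRE), TGACNNNGC, the core of the antioxidant response element (ARE), CCGGAAG, an ETS-type site, and the CCAAT box. The windows are Psmb2 at chr5:144254808-144255057 (+), Psmb3 at chr10:83193537-83193786 (+), Psmb7 at chr3:42827471-42827720 (-), Psma6 at chr6:78514097-78514346 (+), Psmd8 at chr1:93608690-93608939 (-) and Psmd1 at chr9:94157721-94157970 (+).
Psmb2: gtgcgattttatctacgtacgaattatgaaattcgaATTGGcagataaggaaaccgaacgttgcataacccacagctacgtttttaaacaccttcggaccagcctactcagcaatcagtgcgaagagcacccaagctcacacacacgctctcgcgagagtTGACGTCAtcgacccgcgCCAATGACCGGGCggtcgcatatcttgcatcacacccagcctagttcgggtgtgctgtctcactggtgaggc
Psmb3: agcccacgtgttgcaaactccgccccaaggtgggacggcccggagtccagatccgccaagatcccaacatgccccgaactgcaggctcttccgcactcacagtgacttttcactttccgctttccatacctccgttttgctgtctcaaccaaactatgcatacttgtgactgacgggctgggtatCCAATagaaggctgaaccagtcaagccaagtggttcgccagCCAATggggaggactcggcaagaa
Psmb7: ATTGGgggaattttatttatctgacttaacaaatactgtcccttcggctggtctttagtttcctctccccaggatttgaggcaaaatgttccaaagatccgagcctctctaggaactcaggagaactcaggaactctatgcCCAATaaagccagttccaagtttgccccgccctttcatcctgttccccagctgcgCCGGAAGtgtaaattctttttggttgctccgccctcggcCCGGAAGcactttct
Psma6: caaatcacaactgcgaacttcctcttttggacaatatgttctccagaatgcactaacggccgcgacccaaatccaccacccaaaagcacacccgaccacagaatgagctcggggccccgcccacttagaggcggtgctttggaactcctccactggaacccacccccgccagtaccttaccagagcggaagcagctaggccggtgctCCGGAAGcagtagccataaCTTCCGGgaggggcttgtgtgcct
Psmd8: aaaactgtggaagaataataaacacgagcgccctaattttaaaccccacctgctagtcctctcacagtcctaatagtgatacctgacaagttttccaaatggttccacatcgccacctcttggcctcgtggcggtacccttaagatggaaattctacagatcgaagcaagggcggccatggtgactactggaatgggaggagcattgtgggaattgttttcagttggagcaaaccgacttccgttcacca
Psmd1: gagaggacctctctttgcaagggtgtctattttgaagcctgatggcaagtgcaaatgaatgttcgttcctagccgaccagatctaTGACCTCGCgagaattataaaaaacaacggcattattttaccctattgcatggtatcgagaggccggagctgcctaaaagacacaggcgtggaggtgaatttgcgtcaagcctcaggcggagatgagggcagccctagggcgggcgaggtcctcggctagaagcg
The Psmb2 window holds a CRE, a CCAAT box on the other strand and, further down, a CCAAT box that shares 1 base with an ARE core. Psmb3 and Psmb7 each hold 2 CCAAT boxes, Psmb7 and Psma6 each 2 ETS-type sites, Psmd1 an ARE core and Psmd8 none of the 4 motifs. RefSeq places the Psma6 window inside the span of the gene, so an earlier start is annotated as well.

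Windows were matched for 39 of the 43 members, and Psma7, Psmd12, Psmd14 and Psmd6 had none. The ETS-type site was in 13 of the 39 windows (33.3%) against 7.27% of all 33469 windows of the same length. CCAAT was in 18 (46.2%) against 34%, the ARE core in 6 (15.4%) against 10.1%, and the CRE in 1 (2.56%, Psmb2) against 1.59%. The CRE was added to the motifs after the Psmb2 sequence had been seen. A match describes these letters only and is not evidence of binding.

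**Figure D1:**
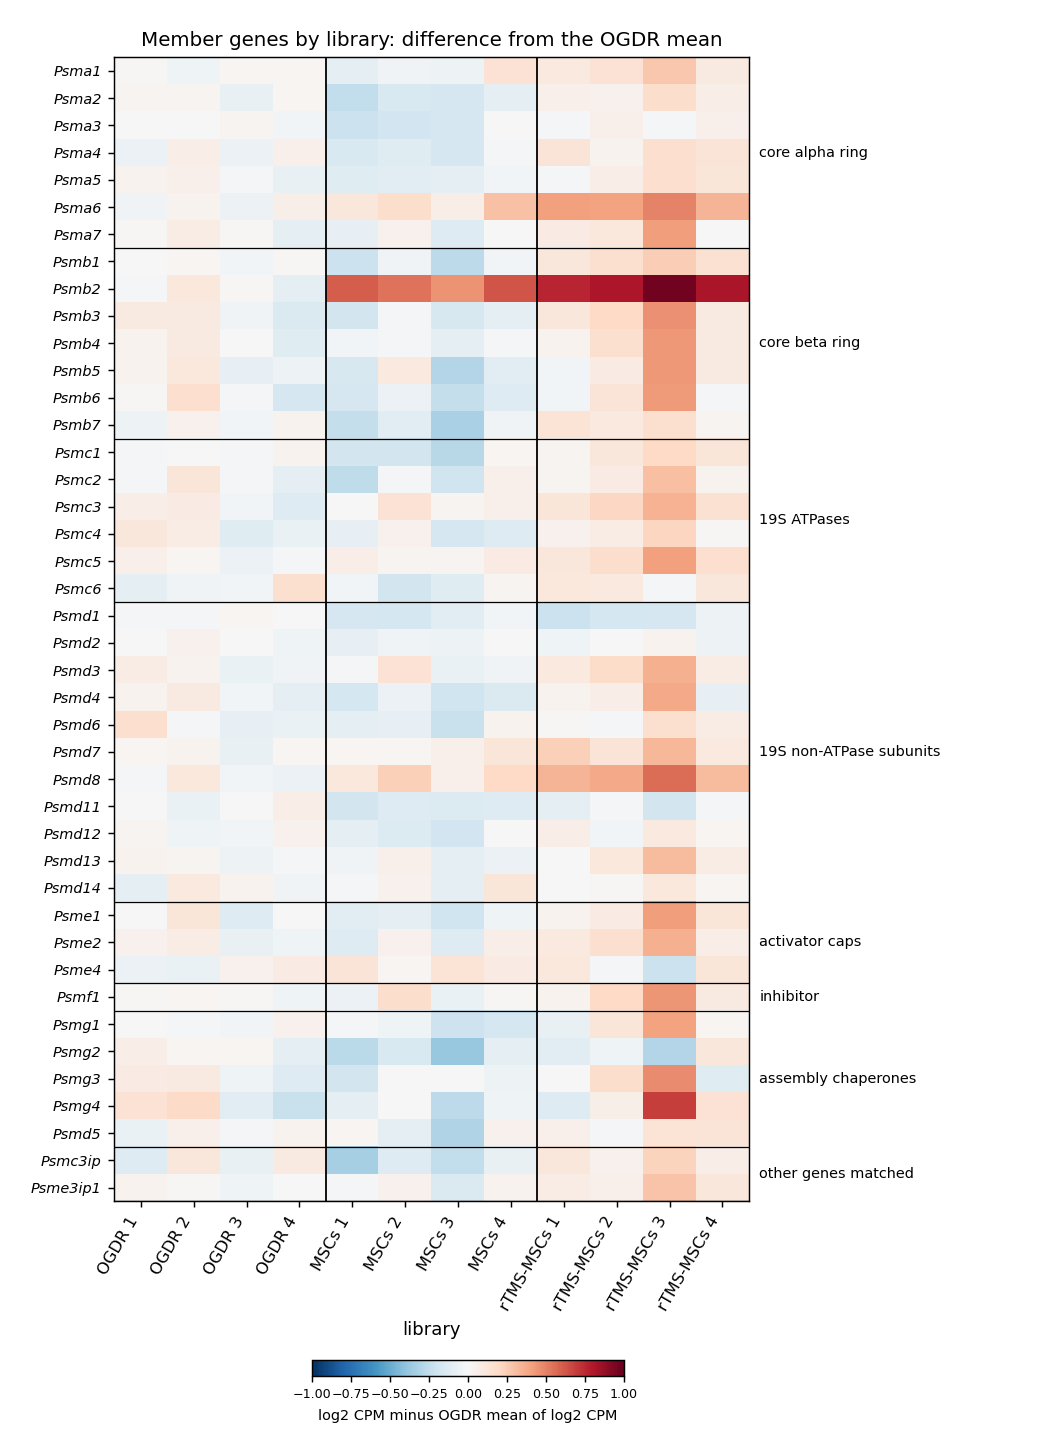
Difference of each tested member from its OGDR mean (colour, log2 CPM) in each of the 12 libraries (columns), with rows ordered by role. Psmb2 is the darkest row in the MSCs and rTMS-MSCs columns, and the rTMS-MSCs 3 column is the most intensely coloured across the rows.

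Psmb2, which encodes a non-catalytic beta subunit, stood highest above OGDR of all members in both other groups. Its level was 109.6, 119.5, 112 and 104 CPM in OGDR, 169, 162, 152 and 172 CPM in MSCs, and 189, 195, 217 and 196 CPM in rTMS-MSCs. The 3 groups did not overlap. The fitted log2 fold change was 0.56 ± 0.0612 (SE) between MSCs and OGDR (edgeR quasi-likelihood test, adjusted p = 8.43e-07). From MSCs to rTMS-MSCs it was 0.28 ± 0.0605 (edgeR, adjusted p = 0.00476), and from OGDR to rTMS-MSCs 0.84 ± 0.0612, a 1.79-fold rise (edgeR, adjusted p = 1.95e-09). Psmb2 was called in all 3 comparisons under each of the 16 alternative settings that tested it. No pseudogene is named after it in RefSeq, but a long non-coding RNA gene overlaps it there and was not in the count table, so reads from the 2 genes could not be told apart.

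Psma6, an alpha ring subunit, was the other member that passed the test in all 3 comparisons. It was 188, 197, 185 and 199.8 CPM in OGDR, 208, 217, 201 and 236 CPM in MSCs, and 255, 254, 270.2 and 243 CPM in rTMS-MSCs. Again no value of one group reached into the next, although the lowest MSCs library and the highest OGDR library lay close together. The log2 fold change was 0.17 ± 0.0567 (SE) for MSCs against OGDR (edgeR, adjusted p = 0.0431), a call lost in 9 of 16 alternatives. For rTMS-MSCs it was 0.25 ± 0.0565 against MSCs (edgeR, adjusted p = 0.00688) and 0.41 ± 0.0566 against OGDR (edgeR, adjusted p = 1.34e-05). RefSeq names 5 pseudogenes after Psma6, so its counts may be split or shared.

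**Figure D2:**
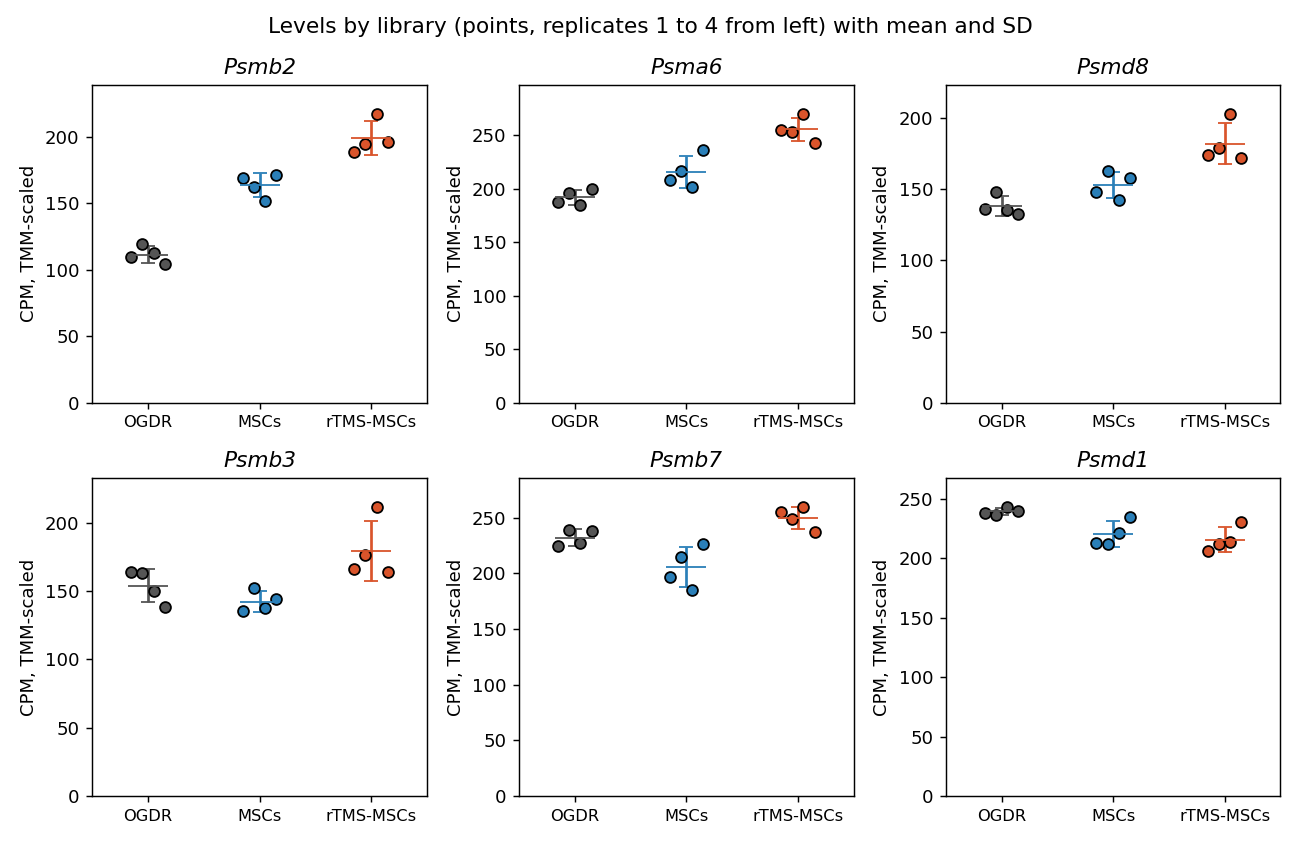
Level in CPM (vertical axes, from 0) of 6 members in each library (points), with the group mean (horizontal line) and SD (bar). Psmb2 and Psma6 separate into 3 levels, Psmb3 and Psmb7 are lowest in MSCs, and Psmd1 is highest in OGDR.

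The comparison of MSCs with OGDR asked what the stem cells changed in deprived cells, and few proteasome genes passed the test. Psmb2 and Psma6 rose, while Psma2, an alpha subunit, and the catalytic Psmb7 fell. That is 2 of 42 tested members higher, against 11.6% of all tested genes, and 2 lower, against 8.63%; in either direction 20.2% of all genes were called. The members' values were nonetheless mostly below those of OGDR, since 10 of 42 log2 fold changes were above 0 and their median was -0.085, where the median of all tested genes was -0.0021. The libraries of the groups did not overlap for 2 members that were higher, against 13.2% of all genes, and for 4 that were lower, against 11.5%.

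Psma2 was 173, 172, 160.2 and 171 CPM in OGDR and 142, 152, 150.1 and 159 CPM in MSCs, so every MSCs library lay below every OGDR library. Its log2 fold change was -0.165 ± 0.0537 (SE; edgeR, adjusted p = 0.0339). Psmb7 was 224, 239, 227 and 238 CPM in OGDR and 197, 215, 185 and 226 CPM in MSCs, which overlap at the fourth MSCs library (log2 fold change -0.17 ± 0.0596, edgeR, adjusted p = 0.0438). The calls for Psma2 and Psmb7 were each lost in 8 of 16 alternatives. Neither Psmb5, at -0.11 ± 0.0881, nor Psmb6, at -0.15 ± 0.0886, passed the test. The count of 4 called members became 1 without MSCs 1, OGDR 1 or OGDR 2, and 2 without MSCs 2, MSCs 3, OGDR 3 or OGDR 4, while without both libraries numbered 3 it was 5. Without 1 of these libraries 9.69% to 10.3% of all tested genes rose and 6.5% to 7.38% fell. Without both libraries numbered 3 the shares were 12.7% and 10%, and with all libraries 11.6% and 8.63%.

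Within the 19S particle edgeR called 0 of the 17 subunits in this comparison, where 4 had an unadjusted p under 0.05, DESeq2 called 1 and limma voom 3. Psmd8, a lid subunit, was at 136, 148, 135 and 132 CPM in OGDR and 148, 163, 143 and 158 CPM in MSCs (log2 fold change 0.15 ± 0.0633, edgeR, adjusted p = 0.109), and without both libraries numbered 3 its value was 0.18 (edgeR, adjusted p = 0.0186). Psmd11, which helps to join the lid to the core, lay below OGDR in every MSCs library, at 154 to 159.6 against 166 to 182 CPM, and missed the threshold (log2 fold change -0.15 ± 0.0532, edgeR, adjusted p = 0.0586), which it passed in 5 of 16 alternatives. The 5 chaperones lay between -0.22 and -0.06, with Psmg2, which helps to build the alpha ring, lowest (edgeR, adjusted p = 0.0986).

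Adding stimulation to the stem cells gave the most called members of the 3 comparisons with all libraries in, while without both libraries numbered 3 it gave 6, against 8 in rTMS-MSCs against OGDR. Without both, 1.12% of all tested genes rose with stimulation and 3.79% fell, where 14.4% rose and 14.4% fell in rTMS-MSCs against OGDR. In rTMS-MSCs against MSCs, 19 of 42 members rose (45.2%) and 0 fell by edgeR, DESeq2 or limma voom, nor was any lower at an unadjusted p under 0.05, where 7.14% of all tested genes rose and 10.9% fell (18.1% in either direction). The change was small for each gene, from 0.16 for Psma3 to 0.34 for Psmb3 on the log2 scale among those that rose. Over all 42 the median was 0.19, against 0.02 over all tested genes, and 40 of 42 values were above 0. The groups did not overlap for 17 members, all higher, against 8.25% of genes higher and 10.8% lower.

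The core particle held most of these calls. All 7 beta ring genes rose, with log2 fold changes of 0.22 to 0.34, and 5 of 7 tested alpha ring genes rose, namely Psma2, Psma3, Psma4, Psma5 and Psma6. Psmb3, a beta subunit, went from 135, 152, 138 and 144 CPM in MSCs to 167, 177, 212 and 164 CPM in rTMS-MSCs (0.34 ± 0.0758, edgeR, adjusted p = 0.00629). RefSeq names 7 pseudogenes and 3 similar genes after Psmb3. Psmb1, another beta subunit, went from 193, 219, 187 and 221 CPM to 244, 250.5, 266 and 250 CPM (0.30 ± 0.0574, edgeR, adjusted p = 0.00258). In both genes the groups were fully apart.

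Of the catalytic subunits, Psmb7 stood out by the spacing of its libraries. It was at 255, 248, 259 and 237 CPM in rTMS-MSCs, all above the MSCs libraries given before (log2 fold change 0.28 ± 0.0596, edgeR, adjusted p = 0.00453). Psmb6 was at 84.6, 90.99, 80.6 and 86.7 CPM in MSCs and 93.2, 103.9, 128 and 93.9 CPM in rTMS-MSCs (0.29 ± 0.0886, edgeR, adjusted p = 0.0306). Psmb5 was at 147, 177, 134 and 153 CPM in MSCs and 162, 174, 222 and 176 CPM in rTMS-MSCs (0.26 ± 0.0881, edgeR, adjusted p = 0.0435). For Psmb5 the groups overlapped at the second MSCs library, and for both Psmb5 and Psmb6 the third rTMS-MSCs library was far above its group. Without both libraries numbered 3, Psmb5 was at 0.10 (edgeR, adjusted p = 0.427) and Psmb6 at 0.15 (edgeR, adjusted p = 0.259), while Psmb7 was at 0.22 (edgeR, adjusted p = 0.0281).

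In the 19S particle 4 of 17 genes rose: the ATPase subunits Psmc1 and Psmc5, the ubiquitin receptor Psmd4 and the lid subunit Psmd8. Psmc1 was at 251, 252, 235 and 289 CPM in MSCs and 291, 308, 328 and 310 CPM in rTMS-MSCs (0.27 ± 0.0593, edgeR, adjusted p = 0.00577). The highest MSCs library and the lowest rTMS-MSCs library almost met. Psmd8 reached 174, 179, 203 and 172 CPM, above every MSCs library (0.25 ± 0.0631, edgeR, adjusted p = 0.0108). The other 13 genes did not pass the test, among them Psmd14, which encodes the deubiquitinating enzyme of the lid, at 0.02 ± 0.0602 (-0.04 without both libraries numbered 3), and Psmd2, a scaffold of the base, at 0.03 ± 0.0449. The test of each gene against MSCs does not compare the core with the 19S particle, and that difference was not tested.

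Of the caps, Psme1 and Psme2, which together form the PA28 activator known from antigen processing, rose by 0.28 and 0.21 on the log2 scale (edgeR, adjusted p = 0.0134 and 0.0345). Psme1 was at 172, 174, 162 and 181 CPM in MSCs and 191, 197, 248 and 202 CPM in rTMS-MSCs, without overlap. Psme4, which encodes the single-chain cap PA200, had the lowest value of all members in this comparison, -0.09 ± 0.0659 (edgeR, adjusted p = 0.374), and its rTMS-MSCs libraries were at 203, 186, 163 and 204.5 CPM. The inhibitor Psmf1 was at 0.18 ± 0.0808 (edgeR, adjusted p = 0.123). Of the 5 chaperones edgeR called 0, DESeq2 1 and limma voom 0, while 3 had an unadjusted p under 0.05 and all 5 values were above 0, at 0.14 to 0.32. The name-matched Psmc3ip rose (0.30 ± 0.0786, edgeR, adjusted p = 0.013).

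**Figure D3:**
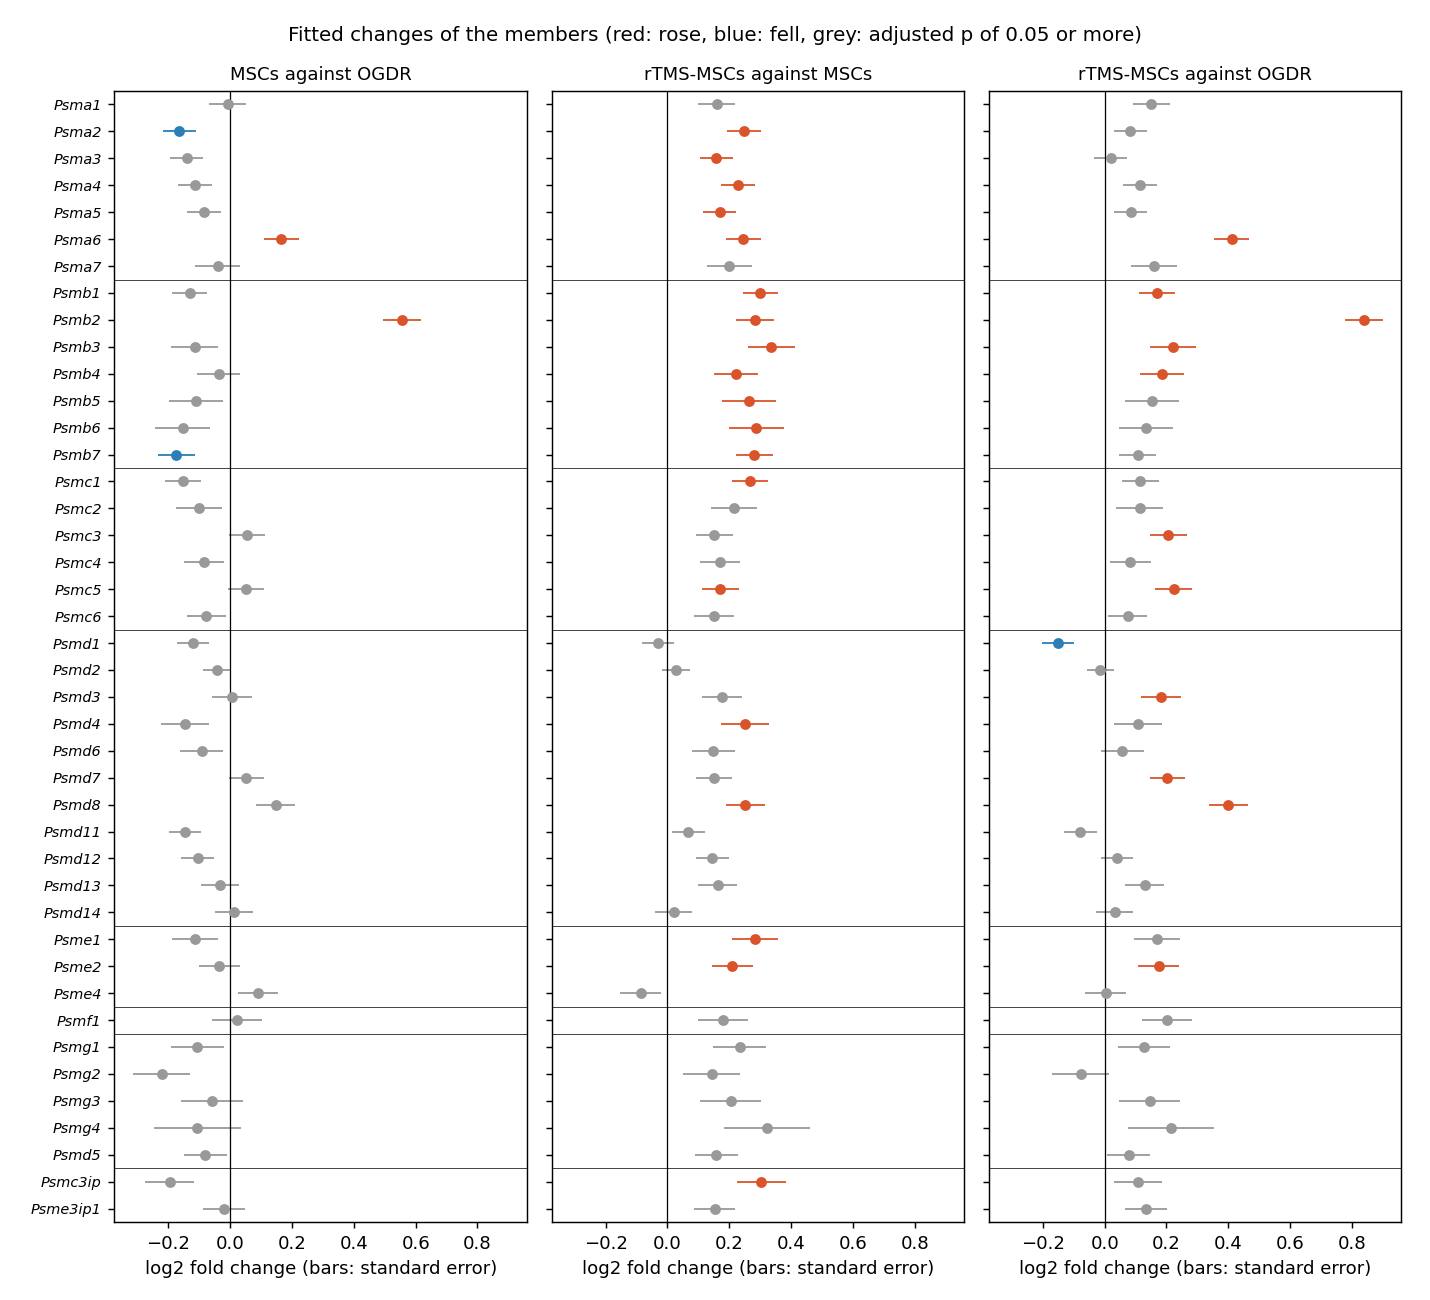
Fitted log2 fold change (horizontal axes) of each tested member with its standard error (bars) in the 3 comparisons, coloured by the edgeR call at an adjusted p of 0.05. In rTMS-MSCs against MSCs all 7 beta ring genes are marked as having risen, and Psmb2 lies farthest right in the other panels.

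The number of called members rested in part on single libraries. From 19, it became 10 without MSCs 1, 10 without MSCs 3, 11 without rTMS-MSCs 2 and 12 without rTMS-MSCs 3. In these fits 2.85%, 2.04%, 4.18% and 3.43% of all tested genes rose, against 7.14% with all libraries, so calls were lost over all genes too. Without both libraries numbered 3 it was 6, namely Psma2, Psmb1, Psmb2, Psmb3, Psmb7 and Psmc1, when 1.12% of all tested genes rose. The median of the 42 members was then 0.10, against 0.0067 over all genes. The fit without both is among the 16 alternatives, so only these 6 could stay called in all 16, and all 6 did. All 6 hold a CCAAT box in the window described above, as did 18 of 39 members and 34% of all windows. The ETS-type site was in 2 of the 6, and the CRE and the ARE core in 1 each. The 6 were chosen by their values, and these shares were not tested.

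Against OGDR, the combined treatment left 11 of 42 members higher and 1 lower, where 16.2% of all tested genes rose and 16.2% fell (32.4% in either direction). Those that rose were Psma6, Psmb1, Psmb2, Psmb3, Psmb4, Psmc3, Psmc5, Psmd3, Psmd7, Psmd8 and Psme2, and the one that fell was Psmd1. The groups did not overlap for 13 members that were higher, against 15.5% of genes, and for 1 that was lower, against 14.8%. The median of the members was 0.13, against 0.008 over all genes. This comparison shares its libraries with the other 2, so its values add no separate sample.

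After Psmb2 and Psma6, Psmd8 was the next highest member, at 0.40 ± 0.0631 (SE; edgeR, adjusted p = 6.67e-05), and its lowest rTMS-MSCs library, 172 CPM, was above its highest OGDR library, 148 CPM. Psmc5, an ATPase subunit, went from 273, 267, 252 and 259.6 CPM in OGDR to 284, 297, 349.9 and 296 CPM (0.22 ± 0.059, edgeR, adjusted p = 0.00674). Psmd7, the partner of Psmd14 in the lid, went from 160, 162, 149 and 159.5 CPM to 186, 172, 198.5 and 169 CPM (0.20 ± 0.0577, edgeR, adjusted p = 0.0108). Psma6, Psmb2, Psmc5, Psmd7 and Psmd8 kept their calls in all 16 alternatives. The call count of 12 became 6 without OGDR 3, OGDR 4 or rTMS-MSCs 2, 7 without rTMS-MSCs 3, and 8 without both libraries numbered 3. Without 1 of these libraries 12.7% to 14% of all tested genes rose and 12.3% to 13.5% fell. Without both libraries numbered 3 it was 14.4% each, and with all libraries 16.2% each.

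Psmd1, a large scaffold subunit of the 19S base, ran the other way. It was at 238, 236, 243 and 240.1 CPM in OGDR, 213, 212, 221 and 235 CPM in MSCs, and 206.5, 212, 213.5 and 231 CPM in rTMS-MSCs. All libraries given stem cells lay below all OGDR libraries, and those of MSCs and rTMS-MSCs overlapped. The log2 fold change was -0.15 ± 0.0518 for rTMS-MSCs against OGDR (edgeR, adjusted p = 0.0309), a call lost in 6 of 16 alternatives, and -0.12 ± 0.0518 for MSCs against OGDR (edgeR, adjusted p = 0.112).

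Taking the 3 groups at once, 23 of the 42 members were called in at least 1 comparison, 19 in none and 2, Psmb2 and Psma6, in all 3. Such counts over the 3 comparisons were not made for all tested genes. In the single comparisons 20.2% of all tested genes were called for MSCs against OGDR and 18.1% for rTMS-MSCs against MSCs. For rTMS-MSCs against OGDR the share was 32.4%. The mean level was lowest in MSCs for 31 members and highest in rTMS-MSCs for 37, an order that was not counted over all tested genes. The summed level of all 43 members was 7132 ± 166 CPM (SD, n = 4) in OGDR, 6925 ± 278 in MSCs and 7846 ± 470.5 in rTMS-MSCs. Its ranges were 6987 to 7338, 6628 to 7231 and 7521 to 8541 CPM, so the rTMS-MSCs libraries lay above the others and OGDR and MSCs overlapped.

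Members varied together from library to library within the groups. The median Pearson r between the deviations of 2 members from their group means was 0.515 over the 861 pairs, where it was 0.005 between members and other genes. These pairs share the same 12 libraries and are given as a description. Without both libraries numbered 3 the median r was 0.277. Over all 12 libraries 4 members had a negative median r to the other members, namely Psme4 at -0.732, Psmd11 at -0.488, Psmc6 at -0.243 and Psmg2 at -0.088. Without both libraries numbered 3 these were -0.393, -0.023, -0.223 and 0.337. The highest in their group by the median of the members was rTMS-MSCs 3, at 0.30 above the OGDR mean on the log2 scale, while the other rTMS-MSCs libraries were at 0.05, 0.09 and 0.09. MSCs 3 was the lowest of all, at -0.14.

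The same 2 libraries were extreme in their share of counts from cytosolic ribosomal protein genes, at 2.999% for rTMS-MSCs 3 and 2.12% for MSCs 3. The group means of that share were 2.60% in OGDR, 2.23% in MSCs and 2.61% in rTMS-MSCs. Of 80 tested cytosolic ribosomal protein genes 55 (68.75%) were called between MSCs and rTMS-MSCs, all higher, with a median of 0.27 on the log2 scale. Over all tested genes 7.14% rose and 10.9% fell. Of 72 mitochondrial ones 22 (30.6%) were called, all higher, with a median of 0.23. Of the 8 chaperonin genes edgeR called 0, and their median was 0.12. In MSCs against OGDR 34 of 80 cytosolic ribosomal protein genes fell (42.5%), as did 4 of 8 chaperonin genes and 6 of 72 mitochondrial ribosomal ones (8.33%), of which 1 rose, where 2 of 42 proteasome members (4.76%) and 8.63% of all tested genes fell. Whether the ribosomal share has a part in the members' values was not tested.

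**Figure D4:**
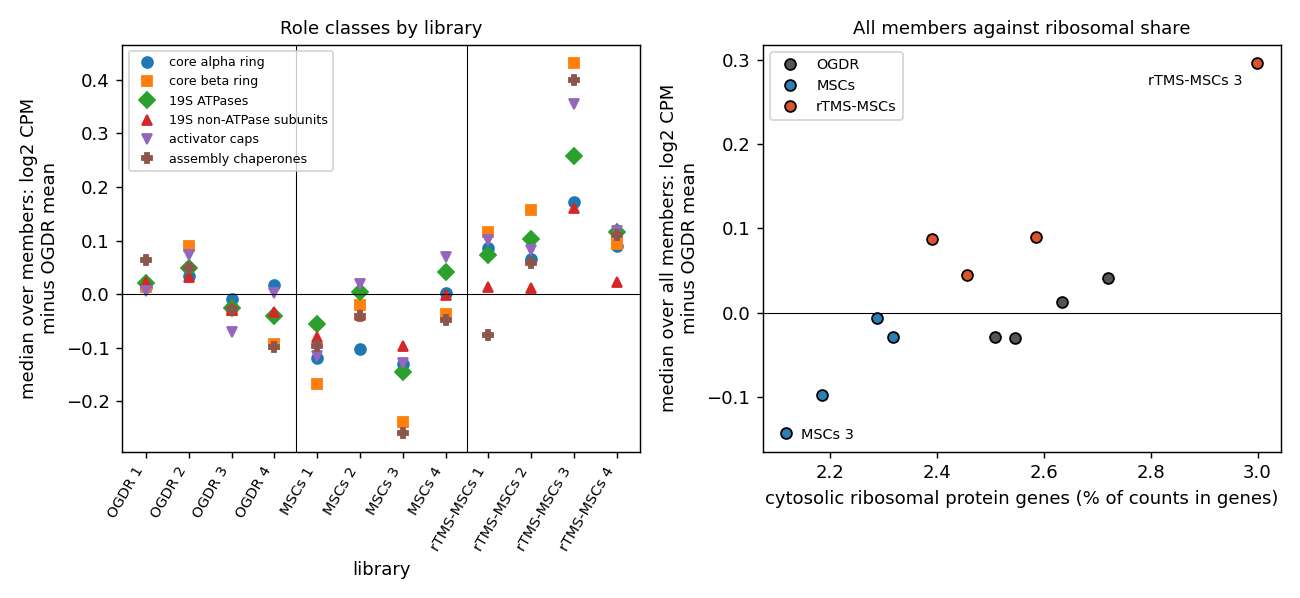
Left, median difference from the OGDR mean (log2 CPM) of each role class in each library. Right, the same median over all members against the share of counts in cytosolic ribosomal protein genes, with 1 point per library; rTMS-MSCs 3, at 2.999% and 0.30, and MSCs 3, at 2.12% and -0.14, mark the ends.

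Of 20 tested genes that work with the proteasome, 1 (5%) was called in rTMS-MSCs against MSCs, where 7.14% of all tested genes rose and 10.9% fell, and the median of the 20 was 0.02. Whether they differed from the subunits was not tested. The called gene was Pomp, which rose; it encodes a chaperone that guides the maturation of the beta ring. Pomp was at 165, 166, 152 and 170.4 CPM in MSCs and 187, 206, 225 and 193.5 CPM in rTMS-MSCs. Its log2 fold change was 0.32 ± 0.0609 (edgeR, adjusted p = 0.00277), the groups did not overlap, and the call held in each of the 16 alternatives. In MSCs against OGDR Pomp fell by 0.19 on the log2 scale (edgeR, adjusted p = 0.0322), a call lost in 7 alternatives. The ubiquitin receptor Adrm1, at 0.21 ± 0.0868, the deubiquitinase Usp14, at -0.02 ± 0.0714, and the protease Ddi2, at 0.02 ± 0.0817, did not pass for rTMS-MSCs against MSCs. The groups did not overlap for Sem1, a small 19S subunit whose name the rule does not match, but at 0.25 ± 0.0907 it did not pass either (edgeR, adjusted p = 0.0609), though it did in 4 of 16 alternatives, and without both libraries numbered 3 it was at 0.10; it was chosen for mention after its values were seen.

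Against OGDR the called partners were lower. In MSCs 4 of 20 fell (20%, against 8.63% of all tested genes): Zfand2a, Nfe2l2, Ecpas and Pomp, of which Ecpas lost its call in 4 of 16 alternatives. In rTMS-MSCs 5 fell (25%, against 16.2% of all tested genes): Nfe2l2, Zfand2a, Ecpas, Ube3c and Nfe2l1. Nfe2l2, the regulator of the antioxidant response, was at 263, 248, 270.1 and 278 CPM in OGDR, 204, 195.5, 201 and 211 CPM in MSCs, and 191, 189, 185 and 207 CPM in rTMS-MSCs. Both treated groups lay wholly below OGDR (log2 fold change -0.385 ± 0.0532 and -0.46 ± 0.0532, edgeR, adjusted p = 1.62e-05 and 1.66e-06). Zfand2a, an arsenite-inducible protein that binds the proteasome, was -0.51 ± 0.0731 and -0.37 ± 0.0728 against OGDR (edgeR, adjusted p = 2.63e-05 and 0.000592). Nfe2l1, the factor known to drive subunit genes when the proteasome is impaired, was at 281, 278, 280.1 and 298 CPM in OGDR and 256.5, 269, 240.2 and 258 CPM in rTMS-MSCs (-0.15 ± 0.0492, edgeR, adjusted p = 0.0232). Without rTMS-MSCs 3 its value was -0.12 (edgeR, adjusted p = 0.0635).

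Of 14 genes for ubiquitin supply and substrate unfolding, 5 rose in rTMS-MSCs against MSCs (35.7%, against 7.14% of all tested genes) and 0 fell. Among the 5 were Rps27a, which encodes ubiquitin joined to a ribosomal protein, and the unfoldase adaptors Nsfl1c and Faf1. Nsfl1c was at 136.9, 139, 128 and 133.9 CPM in MSCs and 156.7, 165.6, 174.5 and 147.3 CPM in rTMS-MSCs, without overlap (0.26 ± 0.0586, edgeR, adjusted p = 0.00629). Without both libraries numbered 3 these 3 genes did not pass, with edgeR adjusted p of 0.0796 for Rps27a, 0.0544 for Nsfl1c and 0.333 for Faf1. In rTMS-MSCs against OGDR they were not called either, at 0.09, 0.10 and -0.05 on the log2 scale. Faf1 had fallen in MSCs against OGDR (-0.26 ± 0.0667, edgeR, adjusted p = 0.00832). Against OGDR, 2 of the 14 rose in rTMS-MSCs and 2 fell (14.3% each, against 16.2% each of all tested genes). Ubb, another ubiquitin gene, rose (0.21 ± 0.0687, edgeR, adjusted p = 0.0232; 0.13 and 0.0584 without both libraries numbered 3), and Uba6 and Ube4b, a ubiquitin-activating enzyme and a chain-extending ligase, fell.

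The immunoproteasome subunits, which the name rule leaves out, replace the catalytic subunits of the core in interferon-exposed cells. Psmb8 was at 127, 150, 127 and 143 CPM in MSCs and 151, 148.5, 183 and 149 CPM in rTMS-MSCs, and it did not pass (0.20 ± 0.0738, edgeR, adjusted p = 0.059), though it did in 5 of 16 alternatives. Psmb9 was at 0.21 ± 0.0774 (edgeR, adjusted p = 0.0608) and passed in 6 of 16, and the interferon regulator Irf1 at 0.14 ± 0.0589 (edgeR, adjusted p = 0.0992). The peptide transporter Tap1 was the 1 of 6 tested genes in that list that rose in rTMS-MSCs against MSCs (16.7%, against 7.14% of all tested genes). In the list 0 fell, against 10.9% of all tested genes. Tap1 was at 0.19 ± 0.0628 (edgeR, adjusted p = 0.039), a call lost in 10 of 16 alternatives. Among these was the fit without both libraries numbered 3 (0.14, edgeR, adjusted p = 0.229). Psmb10 was not analysed here.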

How the data were processed

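Poly(A) RNA of 12 libraries was sequenced, per the labels' protocols; the series text speaks of a microarray and of 20 samples. The deposited table holds raw read counts per gene, with no normalization. The submitters' processing notes name HISAT2 2.1.0, HTSeq 0.11.2, DESeq2 1.40.1 and the build mRatBN7.2. For the counting, a strand setting is not stated in any source used here. Lines that name no gene were left out, and reads without a feature were 51.7% to 52.7% of all reads in the table. Of the 43 members 18 have a pseudogene or similar gene named after them in RefSeq, and how reads with several alignments were handled is not given either.

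Counts were analysed in R 4.3.3 with edgeR 4.0.16: filterByExpr (minimum count 10, minimum total 15), TMM scaling, and 1 quasi-likelihood fit of all 12 libraries with a mean per group. Tests were 2-sided, adjusted by Benjamini-Hochberg over 13692 genes, and "rose" and "fell" mean an adjusted p under 0.05. CPM are TMM-scaled. Their log2 values used a prior count of 2 for the principal components and the correlated deviations, and no prior count in the figures. No transcript lengths were used, so levels are not compared between genes. The scripts were tested on simulated data. Alternatives were median ratio and upper quartile scaling, no filter, DESeq2 1.42.0, limma 3.58.1 (voom with quality weights), 8 libraries only, a replicate block, an adjusted p under 0.01 and leaving out each library. Leaving out both libraries numbered 3 was added after seeing the data. The threshold of 0.01 is not among the 16 alternatives counted per gene and comparison.

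The members and lists were chosen with earlier results of these data known. Members could be named when called in at least 1 comparison or when in a fixed panel of subunits. Genes of the partner, ubiquitin and immunoproteasome lists could be named when called or when in a fixed panel. Some genes of these and the marker lists are not reported here. Ribosomal protein names were narrowed after the data were seen, to leave out the Rps6k kinases.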

Additional observations from a re-analysis of the deposited data

Results flagged for a closer look

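The 132 sets of 4 libraries examined each held the level of 1 member, the summed level or the members' median in 1 group. In 8 of them 1 library lay apart from the other 3 by Dixon's criterion at 95%, where chance alone flags about 1 in 20. Of these, 3 were in rTMS-MSCs 3: Psma2 was highest there, at 190.5 CPM against 177 in the next library, Psmd14 was highest, at 130.5 against 123, and Psmc6 was lowest, at 124 against 133. In OGDR 3, Psma2 was lowest, at 160.2 CPM against 171, and Psmd7 was lowest, at 149 against 159.5. In OGDR 4, Psmc1 was highest, at 293 CPM against 284, and Psmf1 was lowest, at 64.5 against 66.9. In OGDR 2, Psma1 was lowest, at 171 CPM against 178.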

How the results depend on the processing

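Among the log2 fold changes recomputed under the alternatives, direction held except for Psmd1, Psmd14, Usp14 and Ddi2 in rTMS-MSCs against MSCs and Psme4 in rTMS-MSCs against OGDR, none called there by edgeR. On leaving out 1 library the log2 fold change of Psmd1 ranged from -0.0649 to 0.0017, of Psmd14 from -0.0128 to 0.0569, of Usp14 from -0.0629 to 0.0308, of Ddi2 from -0.0439 to 0.0543 and of Psme4 from -0.0363 to 0.0704. Without both libraries numbered 3 Psmd14 was at -0.0399 and Usp14 at 0.0183, with limma voom Ddi2 was at -0.002, and under upper quartile scaling Psme4 was at -0.0034. Called members in MSCs against OGDR, 4, were 1 at an adjusted p under 0.01, 11 with limma voom, 2 without the filter, 1 with the replicate block and 1 to 5 on leaving out 1 library. In these settings 7.95%, 14%, 7.88%, 10.9% and 9.69% to 10.9% of all tested genes rose. The shares that fell were 4.78%, 12.2%, 5.54%, 7.95% and 6.5% to 8.03%. Upper quartile scaling gave 1 higher and 5 lower in place of 2 and 2, where 10.6% of all tested genes rose and 10.4% fell. In rTMS-MSCs against MSCs the 19 became 11 in a fit of 8 libraries, 8 at an adjusted p under 0.01, 6 without both libraries numbered 3 and 10 to 25 on leaving out 1 library. In these settings 4.23%, 1.48%, 1.12% and 2.04% to 9.75% of all tested genes rose. The log2 ratio of summed CPM went from 0.18 to 0.12 without both. In rTMS-MSCs against OGDR the 12 became 4 at an adjusted p under 0.01 and 6 to 15 on leaving out 1 library. There 10.3% and 12.7% to 16.6% of all tested genes rose, and 9.6% and 12.3% to 17.3% fell. Fewer libraries give less power; the cause of the other shifts was not tested. Whether replicate numbers pair the samples was not settled. Of 12 same-numbered pairs of libraries, 1 had a correlation of deviations over 0.1 (range -0.205 to 0.128). In 3 of the 12, all of OGDR with MSCs, each library was the other's best match. With the replicate block 13 and 10 members were called in the comparisons of rTMS-MSCs with MSCs and with OGDR. There 5.3% and 15.3% of all tested genes rose, and 9.27% and 15.2% fell. Depth was even over the libraries, and 1 of the 43 members was too low to test.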

Other observations

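The genes next to Psmb2, Psma6 and Psmd8 in RefSeq were read off after the values of these members had been seen. Nfkbia, the inhibitor of NF-kappa-B that follows Psma6, rose in all 3 comparisons, by 0.53 ± 0.0732 for MSCs against OGDR, 0.40 ± 0.0719 for rTMS-MSCs against MSCs and 0.93 ± 0.073 for rTMS-MSCs against OGDR (edgeR, adjusted p = 1.62e-05, 0.00207 and 6.25e-09). Ppp2r3c and Prorp, on the other side of Psma6, were not called in any of the 3. Ncdn, beyond Psmb2, was 0.58 ± 0.0631 for MSCs against OGDR (edgeR, adjusted p = 6.88e-07) and -0.09 ± 0.0624 for rTMS-MSCs against MSCs (edgeR, adjusted p = 0.302). Clspn, on the side of Psmb2 away from Ncdn, was 0.37 ± 0.0677 for MSCs against OGDR (edgeR, adjusted p = 0.000448) and -0.06 ± 0.0672 for rTMS-MSCs against MSCs (edgeR, adjusted p = 0.534). Beside Psmd8, Spred3 fell against OGDR in MSCs (-0.34 ± 0.103, edgeR, adjusted p = 0.0232) and in rTMS-MSCs (-0.41 ± 0.104, edgeR, adjusted p = 0.00496). On the same side Fam98c (0.45 ± 0.129, edgeR, adjusted p = 0.0114) and Ggn (0.87 ± 0.313, edgeR, adjusted p = 0.0397) rose in rTMS-MSCs against OGDR. Ggn was low, at a mean of 1.23 CPM in OGDR. The cause of these neighbouring values was not tested.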
